A study of Mus musculus with 6 samples.

Results

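The genes described here are regulators of apoptosis and caspases, the proteins through which a cell commits to programmed death and the proteases that carry it out. The list had 35 genes, picked by function and not by a threshold on these arrays. A gene was measured where a probeset of the array was annotated to it alone, and its brightest probeset by mean signal over the 6 arrays stood for it. This gave 32 measured genes, of 18193 genes with a probeset of their own. Bax and Trp53 were not analysed here, and the 3 probesets of Bnip3l are shared with a pseudogene, so that no value is given for it.

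The arrays compared the hippocampus of 3 Glud1 Tg mice, which carry the gene for glutamate dehydrogenase 1 under the promoter of neuron-specific enolase (Nse) and so over-express it in neurons, with that of 3 wt mice. All 6 were male C57BL/6 mice, 9 months old and untreated, and each gave 1 Affymetrix Mouse Genome array of total RNA from homogenized hippocampus. Since the tissue was taken in bulk, fewer cells of a type and less RNA per cell cannot be told apart, and a difference in neurons alone is diluted by the RNA of glia and vessels.

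In the mitochondrial pathway of apoptosis, BH3-only proteins sense damage or loss of trophic support and release BAX and BAK from the survival proteins of the BCL-2 family, so that the outer mitochondrial membrane is opened. Cytochrome c then leaves the mitochondria and joins APAF-1 in the apoptosome, which activates the initiator caspase 9 and through it the effector caspases, while death receptors reach the same effectors through FADD and caspase 8. In the hippocampus this machinery is best known from excitotoxicity, in which overstimulated glutamate receptors load neurons with calcium and their mitochondria fail.

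Promoter windows from RefSeq, on GRCm38.p6, were at hand for 33 of the 35 genes. The window of Cycs, which encodes cytochrome c, is shown because this gene had the lowest unadjusted p in limma of the 30 genes tested. It lies at chr6:50566520-50566819 on the minus strand, from 250 bases before the start of transcription to 50 bases after it. The capitals mark a cyclic AMP response element (CRE), TGACGTCA, which begins 169 bases before the start.
Cycs: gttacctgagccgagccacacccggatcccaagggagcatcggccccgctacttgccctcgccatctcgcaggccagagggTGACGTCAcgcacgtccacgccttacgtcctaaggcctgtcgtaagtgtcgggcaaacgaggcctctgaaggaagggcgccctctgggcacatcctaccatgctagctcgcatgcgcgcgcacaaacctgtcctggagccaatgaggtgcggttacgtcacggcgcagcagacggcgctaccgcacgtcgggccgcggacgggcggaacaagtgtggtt
The 8 letters of this element, which read the same on both strands, were found in 588 (1.79%) of the 32851 windows in the table. Of the 33 genes only Cycs and Birc2 had it, in 2 of 44 windows.

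RefSeq gives Bcl2l1, the gene for the survival protein BCL-XL, 3 starts of transcription, and they are shown because its probesets gave differences of opposite sign. The lines are in lower case throughout because no motif is marked in them. Each runs from 100 bases before a start to 50 bases after it on the minus strand. They are chr2:152831679-152831828, chr2:152830668-152830817 and chr2:152828440-152828589, in the order in which transcription meets them.
Bcl2l1 start 1: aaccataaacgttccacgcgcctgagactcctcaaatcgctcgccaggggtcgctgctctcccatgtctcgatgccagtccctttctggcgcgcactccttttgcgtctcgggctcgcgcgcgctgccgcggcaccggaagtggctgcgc
Bcl2l1 start 2: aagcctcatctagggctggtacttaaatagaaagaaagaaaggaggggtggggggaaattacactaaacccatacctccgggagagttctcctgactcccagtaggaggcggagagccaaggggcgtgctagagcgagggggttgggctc
Bcl2l1 start 3: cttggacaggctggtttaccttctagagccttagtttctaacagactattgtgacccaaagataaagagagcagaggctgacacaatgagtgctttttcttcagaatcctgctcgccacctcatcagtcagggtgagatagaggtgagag
The windows differ in composition. The first holds 19 CpG dinucleotides and 65.3% G and C, the second 4 and 55.3%, and the third 1 and 46.7%. The annotation used here does not say which of these transcripts a probeset reads. Casp9 and Parp1, described below for the same reason, have 1 annotated start each.

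The deposited signals had been scaled to a common mean on every array, and the median signal of the probesets kept for testing was 309.65 to 318.9 on the Tg arrays and 297.3 to 305.35 on the wt arrays. The 31% of probesets with the lowest mean level were left out, which put the lowest mean signal among those kept at 48.75. Of the 32 measured genes, 30 kept their brightest probeset. Casp4 and Birc5 did not and are near background. Glud1 itself had signals of 5115.6, 5595.7 and 5560.8 on the Tg arrays and 6383.3, 5647.3 and 5998.2 on the wt arrays, and whether its probeset covers the transgene's messenger is not given in the sources used here. The 3' control for 18S ribosomal RNA had signals of 1695.3, 975.5 and 3312.8 on the Tg arrays and 13960.1, 10375.2 and 2286.5 on the wt arrays, so that wt arrays 1 and 2 stood apart. At the 5' control, with 1460.7, 355.2 and 3385.1 on the Tg arrays and 7479.8, 3242.4 and 639.6 on the wt arrays, only wt array 1 did. The middle control had 607.8, 377.1 and 718 on the Tg arrays and 1183.1, 1150.7 and 418.6 on the wt arrays. There wt arrays 1 and 2 stood apart again. Markers of dentate gyrus granule cells, a defining cell type of the hippocampus, were present and higher in Tg mice in 8 of 8 genes. Their summed signals were 15325 to 16571 on the Tg arrays and 11815, 12072 and 15314 on the wt arrays. On wt array 3 the sum thus lay close to that of the lowest Tg array, and wt arrays 1 and 2 lay below. Of 5 measured markers of the cortex next to the hippocampus 1 was higher in Tg mice, with sums of 2592 to 3210 on the Tg arrays and 3766 to 4400 on the wt arrays. The sum of 4 markers of the choroid plexus, a tissue beside the hippocampus, was 41740, 64402 and 4396 on the Tg arrays and 47147 to 53584 on the wt arrays, so that Tg array 3 held little of it. The sum of 2 striatal markers was 340 to 448 on the Tg arrays and 539 to 789 on the wt arrays. Of 5 astrocyte markers 1 was higher in Tg mice, with sums of 23957 to 24661 on the Tg arrays and 24804 to 28077 on the wt arrays. Higher in Tg mice were also 1 of 8 markers of endothelial and mural cells and 2 of 4 of oligodendrocytes. For pyramidal cells the counts were 3 of 4 markers of CA1 and 2 of 4 of CA2 and CA3. The part of these shifts in the values below was not tested. Without Tg array 3 the differences described below for Cycs, Casp2 and Parp1 were -0.14, 0.28 and 0.25 on the log2 scale.

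At the level of messenger RNA, no regulator of apoptosis and no caspase was called as different between Tg and wt hippocampus. limma, run on log2(signal + 16) with Benjamini-Hochberg adjustment over all 31076 kept probesets, called 0 of the 30 genes at an adjusted p under 0.05 and 0 (0%) of the 13851 genes with a kept brightest probeset. The lowest adjusted p among the 30 was 0.473. Unadjusted p values under 0.05 were found for 1 of the 30, Cycs, against 7.87% of all genes (1090 of 13851), or 4.97% counting only genes lower in Tg mice, as Cycs was. Cyber-T, the second test named in the study's methods, called 65 probesets (0.209%), 0.180% of all genes at their brightest probeset and none of these genes. In Cyber-T the unadjusted p of Cycs was not under 0.05, and the 1 gene of the 30 that had such a p was Bcl2l2, lower in Tg mice.

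Most differences were small. Of the 30, 12 (40%) were higher in Tg mice, against 44.1% of all genes. With each array centred on its median these shares were 26.7% and 29.3%, and after quantile normalization 33.3% and 40.9%. The median difference, Tg minus wt, was -0.067 on the log2 scale for the 30 genes and -0.031 for all genes, and the 30 ranged from -0.43 for Casp12 to 0.87 for Bbc3. The Tg and wt arrays did not overlap for 3 of the 30, Casp2 and Parp1 (Tg above wt) and Cycs (Tg below wt), against 14.0% of all genes, of which 5.21% had Tg above wt and 8.82% Tg below wt. The wt array 1 was the lowest of the 6 arrays for 10 of the 30 genes (33.3%), against 19.4% of all genes.

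**Figure D1:**
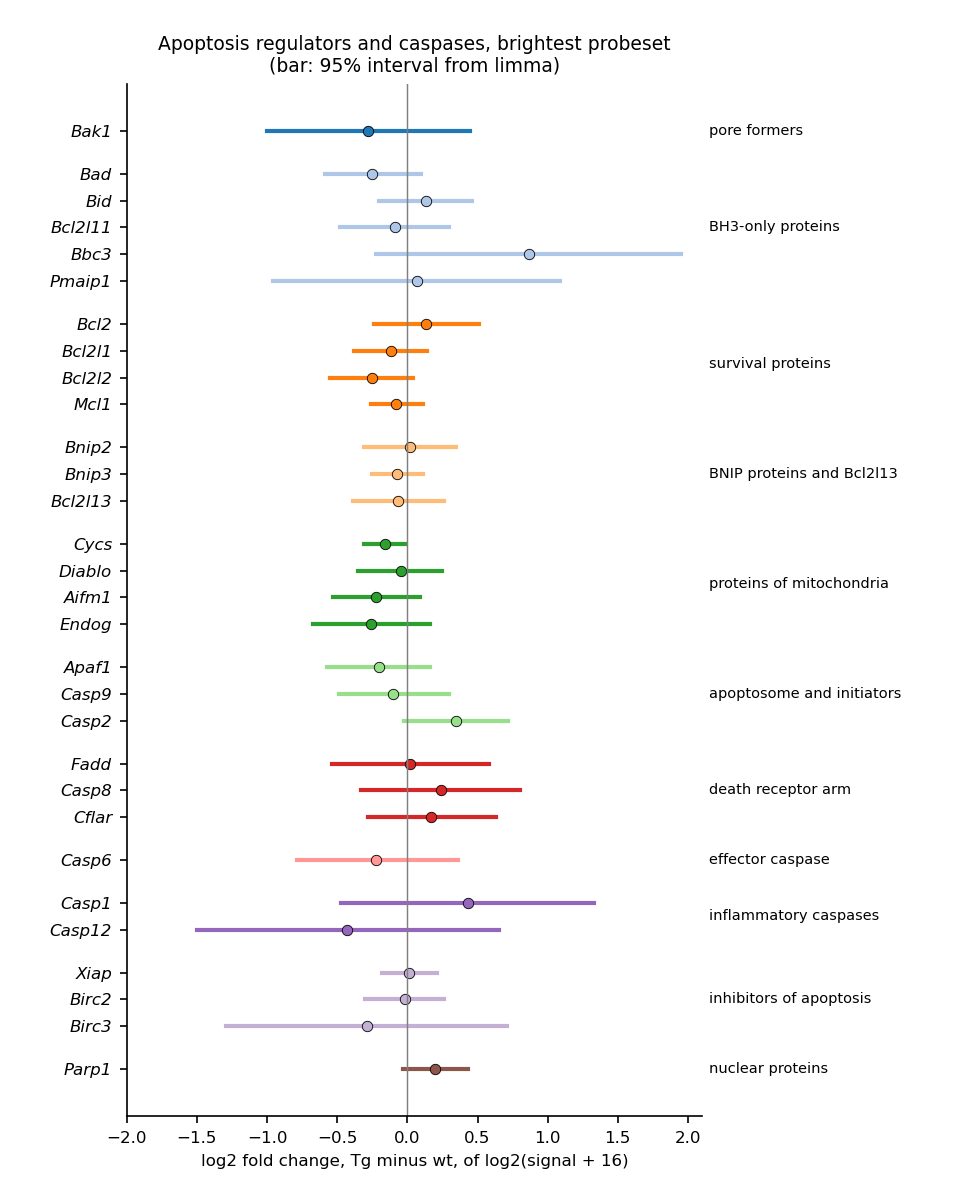
Difference between Tg and wt mice on the log2 scale (horizontal axis, of log2(signal + 16), above 0 where Tg is higher) for the 30 genes with a kept brightest probeset, grouped by role. Points are the brightest probesets and bars the 95% intervals of limma from 3 Tg and 3 wt arrays. The bar of Cycs is the one that ends short of 0, at -0.014.

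**Figure D2:**
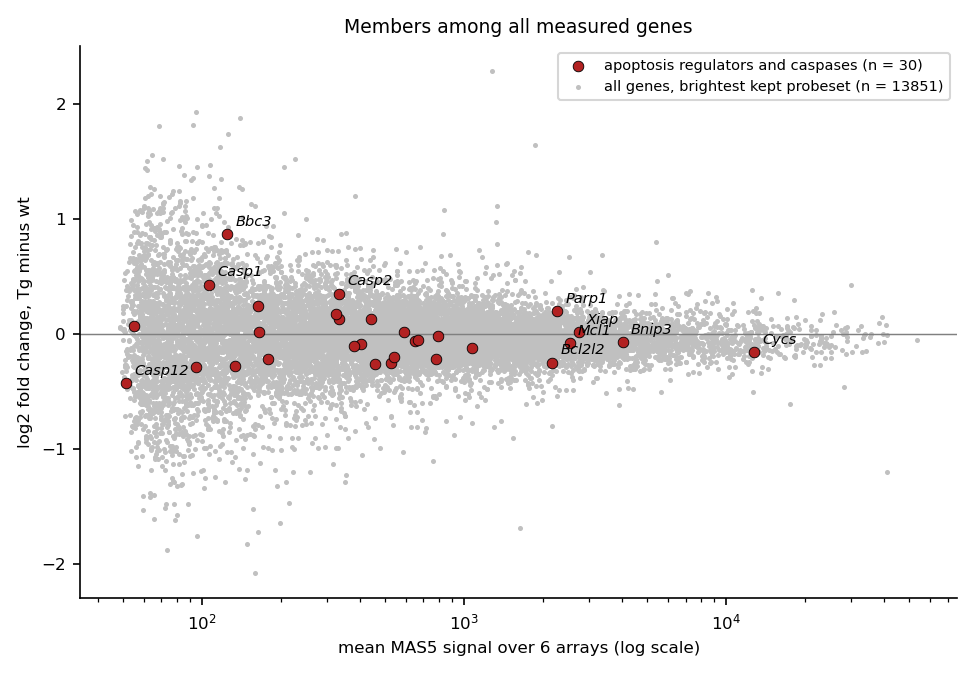
Difference between Tg and wt mice on the log2 scale against the mean signal over 6 arrays (log scale), for the 30 kept apoptosis genes (red) and all 13851 genes at their brightest kept probeset (grey). The red points lie inside the grey cloud at every signal, and the spread widens towards the dim end, where Bbc3, Casp1 and Casp12 lie.

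BAK, the product of Bak1, forms the pores of the outer mitochondrial membrane. Its signals were 109.5, 161.6 and 87.0 on the Tg arrays and 94.0, 167.2 and 186.4 on the wt arrays. The groups overlapped, and the difference of -0.28 had a 95% interval of -1.0 to 0.45.

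The BH3-only proteins, which start the mitochondrial pathway, pointed both ways, with 3 of 5 genes higher in Tg mice (2 when arrays were centred on their median, where Pmaip1 turned) and none past the test. Bad, whose product is held inactive by phosphorylation under trophic support, had signals of 444.4, 437.6 and 565.8 in Tg and 612.8, 597.8 and 509.4 in wt mice. Tg mouse 3 lay above wt mouse 3, and the difference was -0.25 (SE 0.157, adjusted p = 0.641, limma). Bid, which caspase 8 cleaves to link death receptors with mitochondria, averaged 462 ± 36.8 in Tg and 420 ± 29.8 in wt mice (mean ± SD, n = 3), and Bcl2l11, which encodes BIM, 393 ± 58.5 and 418 ± 59.3. Pmaip1, which encodes the MCL-1 ligand NOXA, was dim at 55.7 ± 15.4 in Tg and 54.3 ± 25.6 in wt mice.

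Bbc3, which encodes the p53 target PUMA, had the highest difference of the 30 genes, and it rests on 1 array. Its signals were 106.2, 175.4 and 187.4 in Tg mice and 21.0, 132.2 and 127.2 in wt mice. The lowest Tg value lay below 2 of the 3 wt values. The difference of 0.87 had a 95% interval of -0.22 to 1.95 (adjusted p = 0.608, limma), and without wt array 1, where the probeset was at 21.0, it was 0.21.

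The survival proteins of the BCL-2 family bind the BH3-only proteins and keep BAX and BAK inactive. Of these 4 genes, 3 were lower in Tg mice at their brightest probeset, none past the test. Mcl1, whose product turns over quickly, had signals of 2419.3, 2418.3 and 2543.0 in Tg and 2516.5, 2646.4 and 2634.9 in wt mice. Only Tg mouse 3 reached into the wt range. The interval of the difference was among the narrowest of the list, at -0.079 with bounds of -0.26 and 0.11. Most probesets of Mcl1 had the other sign. Of its 6 kept ones 4 were higher in Tg mice, and the highest difference was 0.16. Bcl2l2, which encodes BCL-W, averaged 1968 ± 166 in Tg and 2376 ± 499 in wt mice (mean ± SD, n = 3), a difference of -0.25 (SE 0.135, adjusted p = 0.58, limma). The wt array 1 was the highest of the 6 at 2951.5, and without it the difference was -0.088. Bcl2 averaged 347 ± 21.2 in Tg and 316 ± 35.2 in wt mice, and Bcl2l1 1027 ± 122 and 1110 ± 28 at its brightest probeset.

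BNIP3 and BCL2L13 sit in the outer mitochondrial membrane and serve as receptors for the removal of mitochondria by autophagy, and BNIP2 was found as a binding partner of BCL-2. Bnip3 had signals of 4105.2, 3830.8 and 3835.4 in Tg and 4334.6, 4058.7 and 3978.3 in wt mice. The groups overlapped only through Tg mouse 1, and the difference of -0.071 had bounds of -0.25 and 0.11. Bcl2l13 averaged 635 ± 51.2 in Tg and 669 ± 105 in wt mice and Bnip2 597 ± 98.3 and 585 ± 39.5 (mean ± SD, n = 3). The sign of Bnip2, 0.02 as deposited, turned under centring and under quantile normalization.

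The 4 genes for proteins that leave the mitochondria were lower in Tg mice, also under both other scalings, as were 55.9% of all genes as deposited. Of the 4 only Cycs had an unadjusted p under 0.05, and the sign of Diablo turned without wt array 2 (0.051). Cycs had signals of 12495.5, 11957.9 and 11726.5 in Tg mice and 13249.3, 13964.3 and 13323.4 in wt mice. Every Tg array was below every wt array. The difference was -0.16 (SE 0.0688, 95% interval -0.31 to -0.014), with an unadjusted p of 0.0346 and an adjusted p of 0.473 in limma. With wt array 3 as the only wt array it was -0.14. Cytochrome c also carries electrons in the respiratory chain.

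The other kept probesets of Cycs had the same sign. They gave -0.093, -0.11 and -0.14, and at 1422484_at, with signals of 4681.2, 4555.1 and 4237.9 in Tg and 4715.5, 5072.6 and 4758.9 in wt mice, the groups again did not overlap. Aifm1 encodes a flavoprotein of the intermembrane space that can move to the nucleus, and averaged 723 ± 114 in Tg and 840 ± 75.2 in wt mice. Endog encodes a mitochondrial nuclease and averaged 419 ± 92.9 and 500 ± 82.4. Diablo, whose product SMAC binds and blocks the inhibitors of apoptosis, averaged 657 ± 26 and 683 ± 88.4 (mean ± SD, n = 3 throughout). Their differences were -0.22, -0.26 and -0.048, with intervals that include 0.

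**Figure D3:**
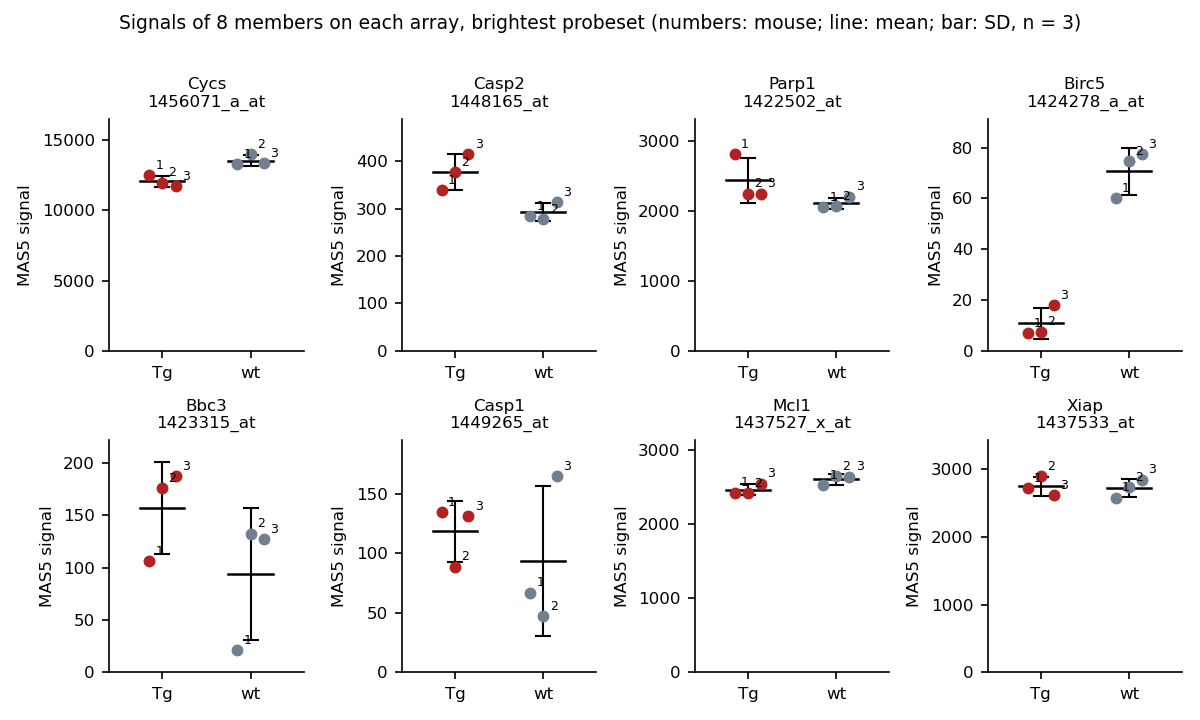
MAS5 signal on each array (vertical axes, from 0, with a scale of its own for each gene) for 8 genes at their brightest probeset, Tg mice left (red) and wt mice right (blue-grey). Points are arrays numbered by mouse, lines the means and bars the SD (n = 3). Tg points lie below all wt points for Cycs and Birc5 and above them for Casp2 and Parp1, and the groups overlap for Bbc3, Casp1, Mcl1 and Xiap.

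The apoptosome and the initiator caspases gave no call. Casp2, which encodes an initiator caspase activated in the PIDDosome, had signals of 339.5, 377.0 and 414.0 in Tg mice and 284.3, 277.9 and 313.5 in wt mice. Every Tg array was above every wt array. The difference of 0.35 (SE 0.172, 95% interval -0.025 to 0.72, adjusted p = 0.546, limma) lay between 0.25 and 0.42 in every setting tried. Casp2 has a single probeset. Apaf1, the scaffold of the apoptosome, had signals of 509.7, 435.7 and 555.5 in Tg and 466.9, 659.5 and 618.4 in wt mice. Tg mice were lower by this measure, but wt mouse 1 lay within the Tg range, and the difference was -0.20 (SE 0.168). Casp9 averaged 370 ± 70 in Tg and 392 ± 27.3 in wt mice at its brightest probeset.

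The 3 genes of the death receptor arm were higher in Tg mice as deposited, but the sign of Fadd, which encodes the adaptor of the receptors, turned under both other scalings. Fadd averaged 167 ± 36.6 in Tg and 163 ± 25.7 in wt mice and Casp8, the initiator of this arm, 176 ± 21.5 and 149 ± 34.7 (mean ± SD, n = 3). Cflar encodes FLIP, a relative of caspase 8 that limits its activation. Its signals were 329.8, 416.8 and 287.5 in Tg and 241.9, 361.6 and 310.3 in wt mice, a difference of 0.17 (SE 0.208). The groups overlapped at this probeset, while the 3 further kept ones gave 0.38, 0.017 and 0.64. At 1425686_at the signals were 245.9, 315.4 and 348.1 in Tg and 221.9, 233.7 and 226.8 in wt mice, without overlap, and those of 1425687_at did not overlap either. Neither passed the test (adjusted p = 0.579 and 0.602, limma).

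Casp6 encodes an effector caspase that cleaves lamins. Its signals were 127.0, 158.8 and 210.0 in Tg and 231.3, 152.3 and 196.5 in wt mice, with overlapping groups and a difference of -0.22 (SE 0.265).

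The inflammatory caspases were dim. Casp1, the protease of the inflammasome that matures interleukin 1 beta, had signals of 134.9, 88.8 and 131.5 in Tg and 67.0, 47.5 and 165.1 in wt mice. The wt mice held both the highest and the lowest value of the 6. The difference of 0.43 had an interval of -0.47 to 1.33 (adjusted p = 0.768, limma), and with wt array 3 as the only wt array it was -0.45. Casp12, whose product is tied to the endoplasmic reticulum, had signals of 43.0, 36.6 and 39.2 in Tg and 31.5, 94.1 and 63.3 in wt mice. Casp4, which encodes the sensor of bacterial lipopolysaccharide in mice, had 1.8, 5.3 and 10 in Tg and 109.0, 7.3 and 5.4 in wt mice, so that only wt array 1 was above the lowest kept level. Markers of microglia, in which inflammasome genes are mostly expressed in brain, were higher in Tg mice in 4 of 10 genes, with summed signals of 15826 to 16583 on the Tg arrays and 16835 to 18324 on the wt arrays.

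The inhibitors of apoptosis bind caspases or the complexes that activate them. Xiap, which blocks caspases directly, had signals of 2725.7, 2904.7 and 2618.4 in Tg and 2582.0, 2733.3 and 2850.1 in wt mice. The groups overlapped and the difference was 0.014, with bounds of -0.18 and 0.21. The 4 further kept probesets of Xiap were also higher in Tg mice as deposited, from 0.091 to 0.46, but the sign of the brightest turned when arrays were centred on their median and that of 1450232_at under quantile normalization. Birc2, a ubiquitin ligase of the tumor necrosis factor receptor complex, averaged 787 ± 14.1 in Tg and 802 ± 95.4 in wt mice (mean ± SD, n = 3). Its relative Birc3 was dim at 80.5 ± 34.2 and 109 ± 59.5.

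Birc5 encodes survivin, which also serves cell division in the chromosomal passenger complex, and its level was near background. Its signals were 7.0, 7.6 and 17.9 in Tg mice and 60.0, 74.6 and 77.3 in wt mice. All wt arrays were above the lowest kept mean level and all Tg arrays below it, but the mean over the 6 arrays put its single probeset among those left out. When no probeset was left out, limma gave an unadjusted p of 0.00224 and an adjusted p of 0.321. Of the 13961 probesets left out as near background, 4.26% had every Tg array below every wt array. Signals this low have no dependable scale, so no size is given for the difference.

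Parp1 encodes a DNA repair enzyme that effector caspases cleave. Its brightest probeset had signals of 2804.8, 2246.0 and 2245.9 in Tg mice and 2056.8, 2062.1 and 2202.0 in wt mice. Every Tg array was above every wt array, by a narrow margin in 2 of them, and the difference was 0.20 (SE 0.107, 95% interval -0.034 to 0.43, adjusted p = 0.584, limma). Without Tg array 1, the highest of the 6, it was 0.092.

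Many of these genes were read by more than 1 probeset. The 32 measured genes had 88 probesets, of which 68 were kept, and 38 of these were not the brightest of their gene. Of the 38, 23 (60.5%) were higher in Tg mice, against 59.6% of the further probesets of all genes, and the medians were 0.11 and 0.069. The groups did not overlap for 9 of the 38, against 15.6% of all further probesets. Unadjusted p values under 0.05 were found for 5 of the 38, against 10.6%, and over all 68 kept probesets for 6, against 9.69%. The lowest adjusted p of the 68 was 0.27 in limma and 0.0811 in Cyber-T, both at a probeset of Parp1.

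**Figure D4:**
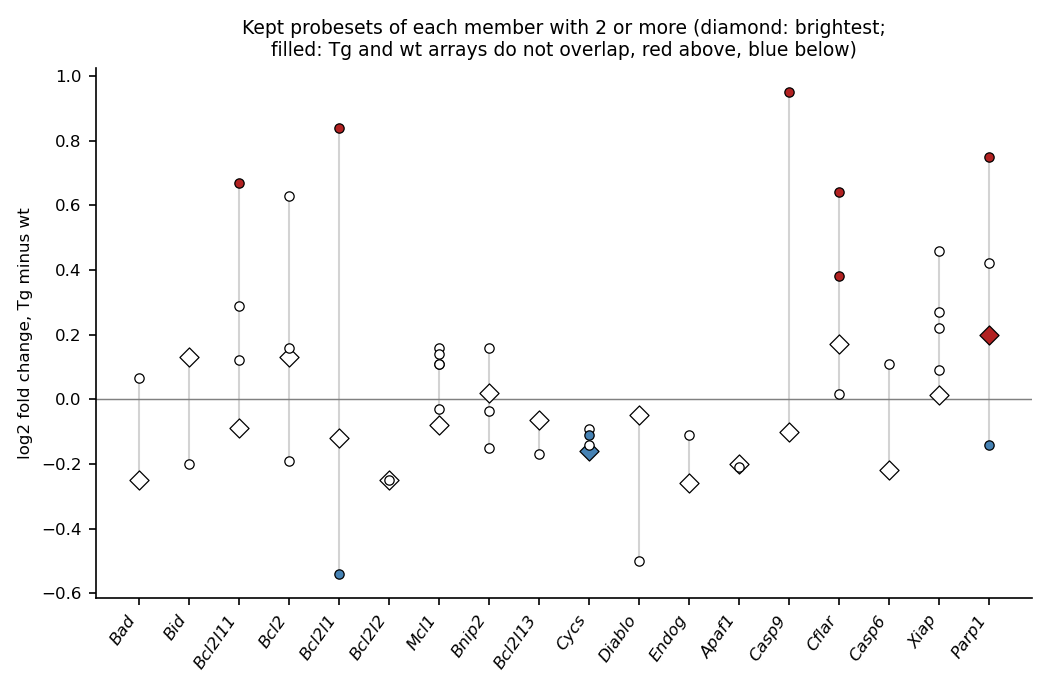
Difference between Tg and wt mice on the log2 scale (vertical axis) at every kept probeset of the 18 genes with at least 2. Diamonds are the brightest probesets, circles the others. Filled symbols have no overlap between Tg and wt arrays (red above, blue below). Red and blue symbols both occur in Bcl2l1 and Parp1, and every symbol of Cycs lies below 0.

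Bcl2l1 gave the clearest case of probesets that disagreed. At 1420887_a_at its signals were 495.6, 511.5 and 439.5 in Tg mice and 718.3, 565.9 and 872.3 in wt mice, with all Tg arrays below all wt arrays and a difference of -0.54 (SE 0.168, adjusted p = 0.317, limma). At 1426191_a_at they were 403.2, 266.1 and 334.6 in Tg mice and 223.2, 125.8 and 195.5 in wt mice, with all Tg arrays above all wt arrays and a difference of 0.84 (SE 0.249, adjusted p = 0.29, limma). The brightest, 1420888_at, lay between them at -0.12, with overlapping groups. Both outer differences kept their sign under every setting that gave them a value, and with wt array 3 as the only wt array they were -0.84 and 0.71. In the maker's naming, the letter a marks probes that match several transcripts of 1 gene.

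Parp1 likewise had probesets on both sides. At 1422503_s_at its signals were 1982.8, 1634.3 and 1973.4 in Tg mice and 705.4, 1265.2 and 1467.2 in wt mice, with all Tg arrays above all wt arrays. The difference was 0.75 (SE 0.213, unadjusted p = 0.00415, adjusted p = 0.27, limma), and it was 0.44 without wt array 1 and 0.34 with wt array 3 alone. At 1435368_a_at the signals were 1521.6, 1502.1 and 1395.1 in Tg mice and 1581.7, 1523.8 and 1757.2 in wt mice. All Tg arrays were below all wt arrays, but Tg array 1 and wt array 2 were nearly equal. The difference was -0.14 (SE 0.102, adjusted p = 0.702, limma), with bounds of -0.36 and 0.088. The dimmest kept probeset of Parp1, 1443573_at, gave 0.42 with overlapping groups. Of the 4 kept probesets, 3 were thus higher in Tg mice. The letter s marks probes that can also match transcripts of other genes.

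In Casp9 the brightest probeset and the other kept one differed. At 1426125_a_at the signals were 173.2, 176.9 and 201.6 in Tg mice and 89.3, 56.6 and 128.1 in wt mice. Every Tg array was above every wt array, and the difference of 0.95 (SE 0.314, adjusted p = 0.35, limma) was 0.47 with wt array 3 alone. The brightest, 1437537_at, was at -0.10 with overlapping groups. At 1435449_at of Bcl2l11 the signals were 132.3, 161.7 and 160.1 in Tg mice and 81.2, 82.2 and 103.9 in wt mice, without overlap. The difference there was 0.67 (SE 0.288, adjusted p = 0.483, limma), beside -0.09 at the brightest probeset of Bcl2l11. Its other kept probesets gave 0.29 and 0.12 with overlapping groups, so that 3 of its 4 were higher in Tg mice.

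**Figure D5:**
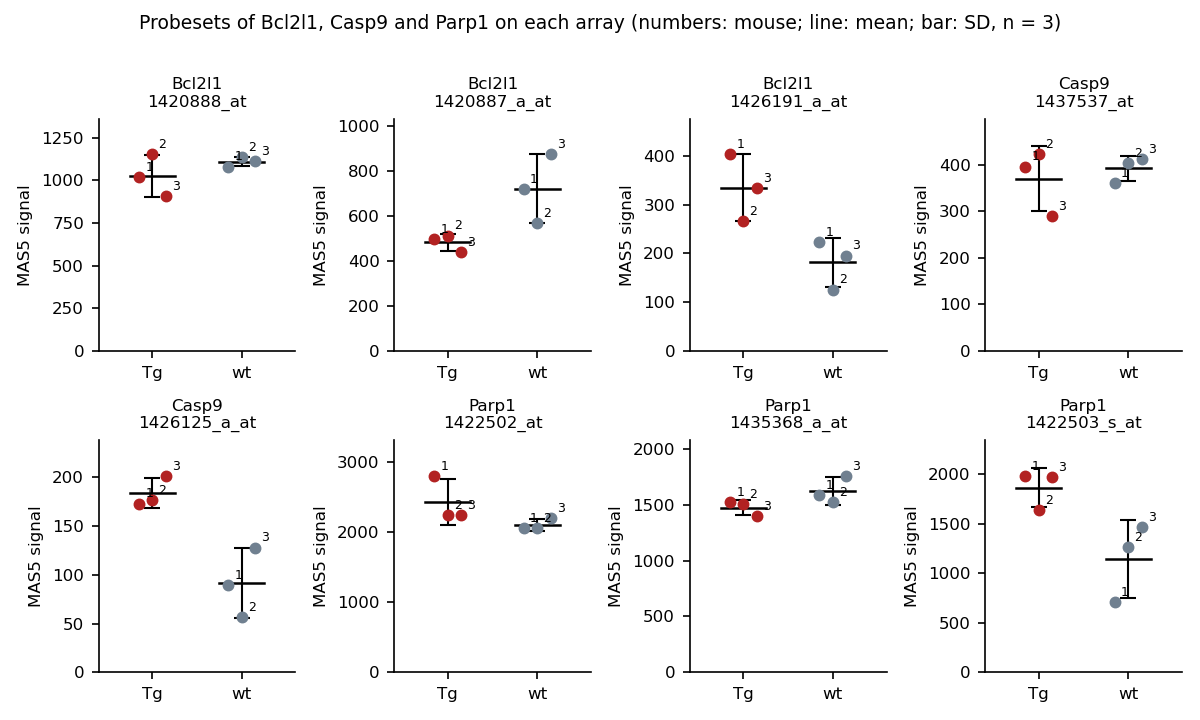
MAS5 signal on each array (vertical axes, from 0, with a scale of its own for each probeset) for 3 probesets of Bcl2l1, 2 of Casp9 and 3 of Parp1, Tg mice left (red) and wt mice right (blue-grey). Points are arrays numbered by mouse, lines the means and bars the SD (n = 3). Tg points lie above all wt points at 1426191_a_at, 1426125_a_at, 1422502_at and 1422503_s_at and below them at 1420887_a_at and 1435368_a_at.

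Among the 18 genes with more than 1 kept probeset, 10 (55.6%) had probesets of both signs, against 58.5% of 6780 such genes in all. The median spread between the lowest and the highest difference of a gene was 0.33 for the 18 and 0.35 for the 6780. Probesets without overlap in opposite directions were found in 2 of the 18 (11.1%), Bcl2l1 and Parp1, against 148 (2.18%) of the 6780. Parp1 is counted only through 1435368_a_at, where the highest Tg signal was 1521.6 and the lowest wt signal 1523.8. These counts are descriptions and were not tested.

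Other genes of the pathway gave no call either. Of a list of 51 further genes (other BCL-2 relatives, death receptors and ligands, caspase substrates, inflammasome genes, mitochondrial channels and calpains), 44 were measured and 37 kept, and limma called 0. Of the 37, 14 were higher in Tg mice, against 44.1% of all genes. Unadjusted p values under 0.05 were found for 3 (8.11%), against 7.87% of all genes, and the 3 were lower in Tg mice. Capn1, a calcium-activated protease, averaged 197 ± 16.6 in Tg and 283 ± 38.4 in wt mice (mean ± SD, n = 3), a difference of -0.49 with an adjusted p of 0.479. Pdcd6, which encodes the calcium-binding protein ALG-2, averaged 2266 ± 230 and 2637 ± 125 (-0.22, adjusted p = 0.51). Vdac1, the main anion channel of the outer mitochondrial membrane, averaged 16996 ± 1421 and 19438 ± 1405 (-0.19, adjusted p = 0.48). The related channels Vdac2 and Vdac3 had differences of -0.0098 and 0.059.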

How the data were processed

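The deposited intensities are linear MAS5 signals, 1 per probeset and array, which the authors obtained with array software that scales each array to a common mean. RMA values, on which the study's lists rest, and scan images were not used here. Of 45101 probesets, 64 controls were set aside and the dimmest 31% of the others left out. log2(signal + 16), which understates the differences of dim probesets, was tested with limma 3.58.1 in R 4.3.3 (moderated variances with an intensity trend, two-sided, Benjamini-Hochberg over the 31076 kept probesets, called at an adjusted p under 0.05). No depth applies to arrays, and the precision is limited by the 3 mice in each group. Tables and figures were made with Python 3.11.15, pandas 2.3.3 and matplotlib 3.10.9. The test was tried on simulated data first.

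The members and lists were chosen with earlier results of these data known. Every member is named, with signals per array for those with an unadjusted p under 0.05, those without overlap, and the brightest of each role. Bbc3, Casp4, Casp12, Birc5 and further probesets are given per array for values already seen. Other pathway genes are named with an unadjusted p under 0.05 or among the 3 highest signals. Replicate numbers do not pair the mice: the correlations of same-numbered arrays were -0.0159, 0.00779 and 0.0333.

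Alternatives were added constants of 1 and 64, arrays centred on their median or quantile-normalized, no filter, the brightest 50%, limma without trend or with array weights, Cyber-T (window 101, confidence 10), 2 of the study's 3 thresholds, a replicate block, a mean over each gene's kept probesets, leaving out each array, and leaving out wt arrays 1 and 2 together.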

Additional observations from a re-analysis of the deposited data

How the results depend on the processing

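No setting called a member, and the number of members higher in Tg mice stayed within 8 and 14. The count of called probesets was 65 with Cyber-T, 1 with the replicate number as a block and 2148 at 1.3-fold and an unadjusted p of at most 0.05 in limma (the study's methods add a limit on the false discovery rate, left out here), and 0 to 6 with 1 array left out. Members at an unadjusted p under 0.05 were 2 with centring on the median, 2 with the mean of all kept probesets of a gene, 2 with the replicate block, 0 with quantile normalization and 0 with wt array 3 as the only wt array, and 0 to 2 with 1 array left out. Members without overlap were 15 with only wt array 3 and 5 to 9 with 1 array left out, since fewer arrays overlap less. Of 688 values of single genes under the alternatives, 652 kept their sign and 36 turned, none from a called value, and the cause was not tested. With the mean of all kept probesets these were Bid (-0.031), Bcl2l11 (0.25), Bcl2l1 (0.062), Mcl1 (0.068), Bnip2 (-0.00048) and Casp9 (0.43). With only wt array 3 they were Bcl2l11 (0.0017), Bcl2 (-0.038), Bnip2 (-0.042), Diablo (0.093), Casp1 (-0.45) and Xiap (-0.053). Centring turned Pmaip1 (-0.015), Bnip2 (-0.063), Fadd (-0.064) and Xiap (-0.068), quantile normalization Bnip2 (-0.017) and Fadd (-0.072), and array weights Xiap (-0.0073). With 1 array left out the ranges crossed 0 for Bcl2l11 (-0.18 to 0.026), Pmaip1 (-0.15 to 0.35), Bnip2 (-0.11 to 0.11), Bcl2l13 (-0.20 to 0.011), Diablo (-0.12 to 0.051), Casp9 (-0.20 to 0.061), Fadd (-0.14 to 0.13), Xiap (-0.026 to 0.049), Birc2 (-0.12 to 0.032) and Birc3 (-0.76 to 0.022). Probesets near background, Casp4 and Birc5 among them, have signals without a dependable order, and the brightest 50% of probesets held 25 of the 30 members.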

Other observations

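Since survivin serves cell division, its partners and the markers of dividing and immature cells were read out after the values of Birc5 had been seen. The precursors of the dentate gyrus are a source of such cells in adult hippocampus. Of 13 measured genes, Aurkb, Mki67 and Cdk1 were near background like Birc5 itself. Of the 10 kept, 7 were higher in Tg mice, against 44.1% of all genes, and limma called 0. Cdca8, a partner of survivin in the chromosomal passenger complex, averaged 80.2 ± 22.4 in Tg and 40.6 ± 10.4 in wt mice (mean ± SD, n = 3). Its difference was 0.76 (adjusted p = 0.608, limma), with every Tg array above every wt array, as for 5.21% of all genes. It was dim, with wt signals of 51.9, 31.4 and 38.4 beside the lowest kept mean level of 48.75. The scaffold Incenp was at -0.13. Among markers of immature neurons, Neurod1 averaged 1115 ± 26 in Tg and 893 ± 109 in wt mice, a difference of 0.32 (adjusted p = 0.427, limma), and Dcx 637 ± 26.6 and 710 ± 130, a difference of -0.14.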
